A study of Mus musculus with 24 samples.

Results

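The genes that fall, and the small changes that repeat, were followed in mouse bone marrow neutrophils treated with IL4 or IGF1 by pooling the 8 libraries of these treatments and setting them against the 12 libraries of untreated and insulin treated cells. These are 20 of the 24 samples of the series, chosen by their treatment labels, and the 4 LPS/IFNγ libraries were not used here. Neutrophils of C57Bl/6J mice were enriched on a Percoll gradient and cultured for 4 hours without additions, with IL4 at 20 ng/mL, IGF1 at 10 ng/mL, or insulin at 10 or 100 ng/mL, with 4 libraries in each group. Every library carries the number 6, 9, 10 or 11, each number occurs once in every group, and the 5 libraries that carry it are referred to as a preparation. Whether a number stands for 1 mouse is not given in the labels or the methods, and libraries of a number were also named in consecutive runs, so that the cells and the library batch behind a number cannot be told apart and p-values measure the spread between these libraries. Each preparation holds 2 treated and 3 control libraries, which allows the comparison to be read 4 times.

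Neutrophils are short-lived phagocytes that leave the bone marrow with their granule proteins already made and kill microbes with granule enzymes, with reactive oxygen made by the NADPH oxidase, and by releasing chromatin as extracellular traps. IL4 signals through JAK kinases and the transcription factor STAT6 and is known as the cytokine of alternative activation. IGF1 and insulin bind related receptor tyrosine kinases, and insulin was pooled here with the untreated cells.

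Values are RPKM, which scales reads to transcript length and library size, and changes are differences of log2(RPKM + 0.1), a scale on which the changes of weakly expressed genes come out too small. The 9404 genes that reached 1 RPKM in 8 or more of the 20 libraries were fitted with limma with preparation as a block, and called genes are those with an adjusted p (Benjamini-Hochberg) under 0.05. The libraries held 18920357 to 26657197 mapped reads. The label was checked on 30 neutrophil genes, all of which passed the filter, with a summed level of 101100 to 129710 RPKM in treated and 101340 to 133110 RPKM in control libraries. Markers of other cells were also present. The 14 B lineage markers summed to 1400 to 2186 RPKM in treated and 1526 to 2287 RPKM in control libraries, and the 16 T and NK cell markers to 37.9 to 54.3 RPKM and 33.9 to 62.8 RPKM. In such bulk RNA, fewer cells of a type and less RNA per cell cannot be told apart.

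At any size, 969 genes were lower with IL4 and IGF1 (10.3% of those tested) and 1639 were higher (17.4%). At 1.5-fold or more, 63 genes were lower (0.67%) and 230 higher (2.45%), so 906 of the called falls were smaller than 1.5-fold. The count of 63 was unstable, at 165 without the IL4 library of preparation 6, 101 and 99 without the 10 ng/mL insulin libraries of preparations 6 and 9, 293 without preparation 6, 146 with a filter of 0.1 RPKM in 4 libraries, 18 with a filter of 5 RPKM and 27 with a pseudocount of 1. With median-of-ratios scaling of the libraries in place of RPKM as deposited, 1595 genes were lower and 1385 higher, so the balance of falls and rises depends on the scaling. A stricter reading asks in each preparation whether both treated libraries lie under all 3 controls of the same preparation. This held in all 4 preparations for 245 genes (2.61%), and the mirror image held for 565 genes (6.01%). All 245 were also called by limma, 30 of them at 1.5-fold or more and 215 below it. Libraries of a preparation resemble each other, and when each preparation gave 1 difference, 107 of the 245 were called, and 147 genes were lower and 484 higher at any size. With median-of-ratios scaling all 245 were called lower as well.

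The 215 smaller falls had a median log2 change of -0.25, a loss of 15.9%, and ran from -0.09 for Gnaq, a G protein alpha subunit (adjusted p = 0.0128, and 0.0597 without preparation 10), to -0.56 for Kcnj2, a potassium channel. Over all 245 genes, 20 fell by less than 10%, 123 by 10 to 20% and 72 by 20% or more without reaching 1.5-fold. Of the 30 genes lower in every preparation whose pooled fall was 1.5-fold or more, 22 had a control median under 5 RPKM and 2 a control median over 20 RPKM. Those 2, chosen here after their values were seen, were Ighd, the heavy chain of IgD, and Cd72, a B cell co-receptor. Preparations differed in their levels, and only 30 genes (0.319%) had all 8 treated libraries under all 12 controls. All 30 are among the 245 by definition, and 5 of them fell by 1.5-fold or more (Fcmr, Rasgrp3, Apoe, Cxcr3 and Fcrl1).

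**Figure D1:**
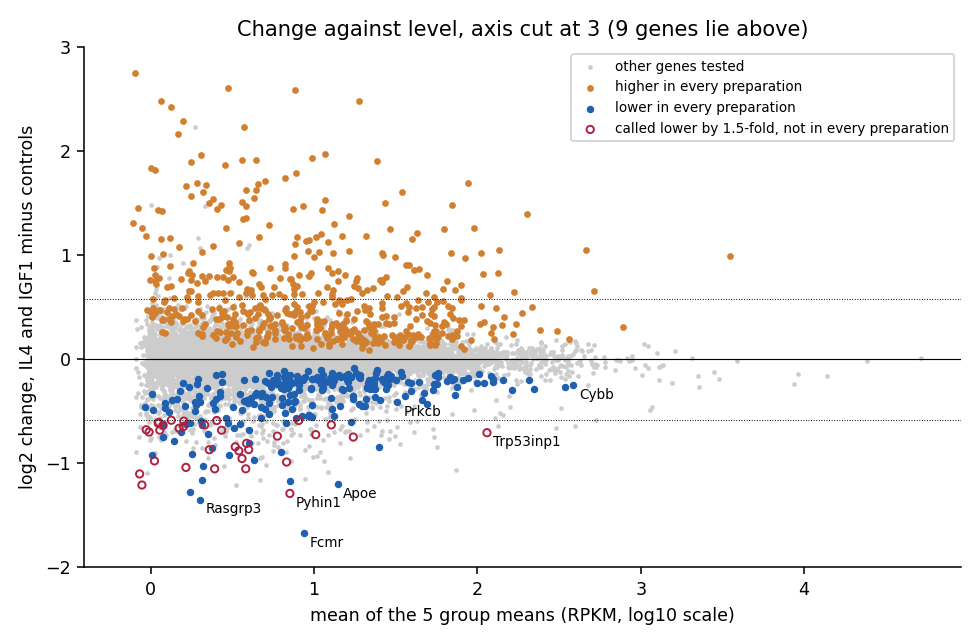
Log2 change of IL4 and IGF1 against the controls, plotted against the mean RPKM of the 5 groups on a log10 scale, 1 point per gene tested. Blue points are the 245 genes lower in every preparation, orange points the 565 genes higher in every preparation, and red circles the 33 genes called lower by 1.5-fold or more that were not lower in every preparation. Dotted lines mark 1.5-fold, and most blue points lie above the lower of them.

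The promoters of 3 genes that fell in every preparation and of a gene that rose are shown because they hold a motif searched for here. Sequences are those of RefSeq on GRCm38.p6, from 250 bases before to 50 bases after an annotated start, with the motif in capitals. Il7r (chr15:9529827-9530126, minus strand) holds TTCNNNGAA, the STAT motif with a spacing of 3, at position -142 from the start. Gng2 (chr14:19976644-19976943, minus strand) and Cybb (chrX:9469275-9469574, minus strand) hold the AP-1 motif TGANTCA at -167 and -139. Retnla (chr16:48842359-48842658, plus strand), a marker of alternative activation, holds TTCNNNNGAA, the spacing of 4 that STAT6 is known to favour, at -145.
Il7r: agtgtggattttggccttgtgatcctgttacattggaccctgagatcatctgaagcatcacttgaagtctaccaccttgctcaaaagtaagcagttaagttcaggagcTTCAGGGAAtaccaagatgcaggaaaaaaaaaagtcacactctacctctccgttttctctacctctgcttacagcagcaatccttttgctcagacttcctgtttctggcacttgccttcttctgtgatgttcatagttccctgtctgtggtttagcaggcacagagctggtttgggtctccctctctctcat
Gng2: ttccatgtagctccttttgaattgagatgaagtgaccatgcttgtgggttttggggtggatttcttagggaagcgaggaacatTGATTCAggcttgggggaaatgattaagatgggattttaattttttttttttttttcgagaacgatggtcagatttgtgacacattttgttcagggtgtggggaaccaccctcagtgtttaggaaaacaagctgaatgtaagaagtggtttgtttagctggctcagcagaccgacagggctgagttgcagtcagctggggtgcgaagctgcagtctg
Cybb: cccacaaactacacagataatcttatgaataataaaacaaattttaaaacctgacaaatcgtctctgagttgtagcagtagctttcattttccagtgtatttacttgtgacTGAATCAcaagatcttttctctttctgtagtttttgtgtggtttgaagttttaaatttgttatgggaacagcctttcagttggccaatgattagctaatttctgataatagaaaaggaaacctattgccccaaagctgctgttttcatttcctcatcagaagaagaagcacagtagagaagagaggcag
Retnla: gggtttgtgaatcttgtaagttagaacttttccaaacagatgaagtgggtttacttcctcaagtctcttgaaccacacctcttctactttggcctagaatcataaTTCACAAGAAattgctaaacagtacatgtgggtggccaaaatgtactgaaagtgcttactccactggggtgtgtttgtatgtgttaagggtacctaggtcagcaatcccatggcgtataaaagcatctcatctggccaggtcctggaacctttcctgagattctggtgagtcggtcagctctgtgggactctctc

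Promoters were matched by symbol for 203 of the 245 genes, for 442 of the 565 that rose in every preparation and for 7095 of all 9404 tested. TTCNNNNGAA, which reads the same on both strands, was found for 7.39% of the genes that fell, for 9.73% of those that rose and for 6.53% of all. TTCNNNGAA was found for 8.37%, 13.35% and 8.29%. TGANTCA was found for 8.87%, 9.73% and 5.89%, and TGACGTCA, the cAMP response element, for 0.49%, 1.58% and 3.72%. The STAT motifs can overlap each other, the other motifs were counted apart, and genes with several starts count once. A match at any start counted, and the mean number of promoters per gene was 1.36, 1.34 and 1.27. The genes that fell or rose thus had more sequence to match in than all genes. A match is a description of the letters and not a binding site.

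Fcmr, the receptor for the Fc part of IgM, had the largest fall of all genes lower in every preparation. It lies on chromosome 1 of GRCm38 (130865669 to 130880791). In preparation 6 its RPKM was 7.20 untreated, 9.03 and 8.81 with insulin at 10 and 100 ng/mL, 2.70 with IL4 and 2.69 with IGF1. In preparation 9 the same 5 values were 18.6, 20.1, 19.6, 6.23 and 5.89, in preparation 10 they were 6.30, 7.80, 6.81, 2.01 and 2.38, and in preparation 11 they were 13.4, 12.1, 14.6, 4.02 and 3.41. The levels of the preparations differed by more than 2-fold, while the fall hardly varied between them. The log2 changes were -1.59, -1.66, -1.62 and -1.82, and the pooled change was -1.67 (standard error 0.06, limma adjusted p = 1.44e-14). IL4 and IGF1, which share their controls here, gave -1.66 and -1.68.

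Rasgrp3, an exchange factor that activates Ras (chromosome 17, 75435896 to 75529054), had a lowest, median and highest RPKM of 0.632, 0.876 and 1.36 in the 8 treated libraries and of 1.56, 2.48 and 4.28 in the 12 controls, and a log2 change of -1.35 (standard error 0.08, limma adjusted p = 4.59e-11). Il7r, the alpha chain of the IL7 receptor, had 1.27, 4.61 and 6.52 RPKM against 6.10, 8.72 and 13.9 RPKM. Its change was -1.17, with an uneven size, from -0.33 in preparation 6 to -2.15 in preparation 10, and without preparation 10 it was -0.85 (adjusted p = 0.0007). Klrd1, an NK cell receptor chain, changed by -1.16 on 18 to 112 reads per library. Id3, an inhibitor of helix-loop-helix transcription factors, changed by -1.02, Tcf7, a transcription factor of T cells, by -0.89, and Fcrl1, a receptor-like protein of B cells, by -0.91. Cxcr3, the receptor for interferon-induced chemokines, changed by -0.92 on 13 to 75 reads per library. With 0.325 to 0.922 RPKM in treated libraries, Cxcr3 passed the filter of 1 RPKM only through its controls. Ighd had 8.78, 14.6 and 29.1 RPKM in treated and 15.5, 26.8 and 53.4 RPKM in control libraries, a log2 change of -0.84 (standard error 0.03).

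Of the 13 B lineage markers tested, 1 fell and 3 rose (7.69% and 23.1%, beside 10.3% and 17.4% of all genes). With median-of-ratios scaling 3 fell and 3 rose. The 1 that fell was Cd79a, a chain of the B cell receptor complex (-0.24). Its partner Cd79b (0.36) and Pax5, the B cell transcription factor (0.30), were among those that rose. Fcer2a, the low affinity IgE receptor known as an IL4 target in B cells, rose by 1.48. Of the 12 T and NK cell markers tested, 7 fell and 3 rose (58.3% and 25%). Il7r, Lck (-0.31), Cd3d (-0.24) and Cd2 (-0.34) were lower and Cd8a (1.87) and Gzma (1.90) higher. List members named here and below were picked by their p, and not all of them were lower or higher in every preparation. The summed levels of the B lineage and T and NK lists overlapped between treated and control libraries, as given above, and their part in these falls was not tested.

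Apoe, the apolipoprotein of cholesterol transport (chromosome 7, 19696109 to 19699188), had in preparation 6 an RPKM of 16.4, 16.9 and 16.8 in untreated cells and with 10 and 100 ng/mL insulin, and 5.95 and 6.26 with IL4 and IGF1. In preparation 9 the values were 29.6, 25.6, 19.7, 10.98 and 9.99, in preparation 10 they were 16.8, 16.7, 12.4, 8.90 and 7.79, and in preparation 11 they were 15.2, 15.1, 15.4, 6.42 and 6.07. Every treated library lay under every control, with a log2 change of -1.20 (standard error 0.08, limma adjusted p = 8.84e-10). Abca1, which exports cholesterol to apolipoproteins (chromosome 4, 53030787 to 53159895), had 2.08, 2.59 and 3.56 RPKM in treated and 3.47, 5.41 and 7.62 RPKM in control libraries as lowest, median and highest, and changed by -0.97 (standard error 0.07, adjusted p = 9.25e-10). Apoc2, a cofactor of lipoprotein lipase, changed by -0.66. Of the 16 genes of cholesterol efflux and lipid handling tested, Apoe and Abca1 fell and 4 rose (4 and 4 with median-of-ratios scaling). These shares were 12.5% and 25%, beside 10.3% and 17.4% of all genes. Abcg1, another cholesterol exporter (0.29), and the endothelial lipase gene Lipg (5.47) were among the genes that rose.

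The remaining large falls named by the selection rule were Pgap1 and Ms4a4c. Pgap1, which remodels GPI anchors, changed by -1.27 and unevenly, by -0.71, -1.09, -2.46 and -0.84 in preparations 6, 9, 10 and 11. Ms4a4c, a member of the MS4A membrane proteins, changed by -0.92. Of 11 monocyte and macrophage markers tested, 4 fell and 3 rose (36.4% and 27.3%, beside 10.3% and 17.4% of all genes). F13a1, the factor XIII A chain, changed by -0.80, Ccr2, the receptor for CCL2, by -0.61 and Ms4a6c by -0.46, whereas Adgre1, which encodes F4/80, rose by 1.21. The 19 markers of that list summed to 276 to 413 RPKM in treated and 258 to 361 RPKM in control libraries, and their part in these falls was not tested.

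**Figure D2:**
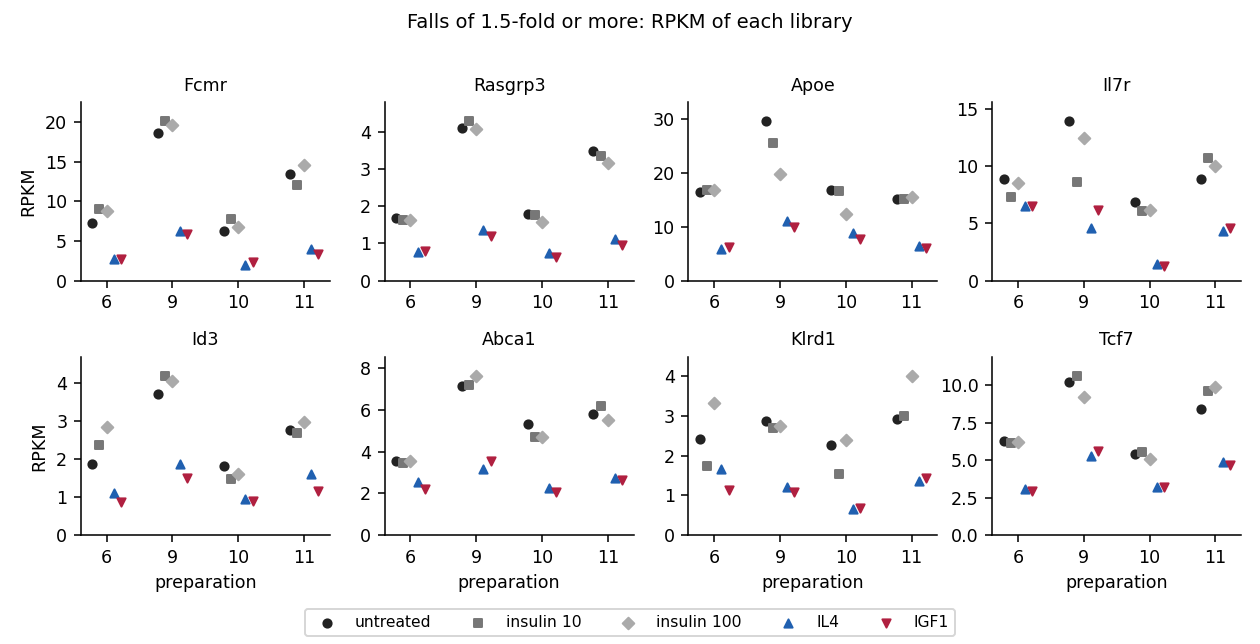
RPKM of each of the 20 libraries (vertical axes from 0) by preparation (horizontal axes) for 8 of the genes with the largest falls. Grey and black symbols are untreated and insulin libraries, blue and red triangles IL4 and IGF1. In every panel both triangles lie under the 3 controls of their preparation, as for Fcmr with 2.70 and 2.69 against 7.20 to 9.03 in preparation 6. The genes were selected for this.

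Several genes of signal transduction were among the falls of less than 1.5-fold that had the smallest p. Prkcb, the protein kinase C beta that acts in the oxidative burst (chromosome 7, 122288751 to 122634402), had 37.6, 36.4 and 34.3 RPKM in the controls of preparation 6 (untreated, 10 and 100 ng/mL insulin) and 27.6 and 27.1 RPKM with IL4 and IGF1. The controls of the other preparations had 32.9 to 39.5 RPKM and their treated libraries 25.6 to 28.1 RPKM. The groups did not overlap, and the log2 changes were -0.40, -0.41, -0.47 and -0.37 in preparations 6, 9, 10 and 11. The pooled change was -0.41 (standard error 0.03, limma adjusted p = 9.01e-10). Gng2, a gamma subunit of G proteins, had 10.6, 12.1 and 12.8 RPKM in treated and 15.2, 15.9 and 18.1 RPKM in control libraries as lowest, median and highest, again with no overlap (-0.44, standard error 0.03, adjusted p = 3.96e-09).

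Lrrfip2 had 28.2 to 30.5 RPKM in the 8 treated and 32.9 to 34.6 RPKM in the 12 control libraries, and its log2 change was -0.21, -0.21, -0.21 and -0.18 in the 4 preparations (pooled -0.20, standard error 0.02, limma adjusted p = 3.96e-07). Id2, an inhibitor of helix-loop-helix factors like Id3, changed by -0.39, with 19.5, 20.6 and 24.7 RPKM in treated and 23.8, 27.6 and 32.8 RPKM in control libraries. The groups overlapped because preparation 10 was high throughout, at 31.4 to 32.8 RPKM in its controls and 23.3 and 24.7 RPKM in its treated libraries. Bmx, a TEC family tyrosine kinase, changed by -0.30, St3gal6, a sialyltransferase that helps to build selectin ligands, by -0.54, and Cblb, a ubiquitin ligase that restrains kinase signalling, by -0.48. Cd93, a surface glycoprotein of myeloid and endothelial cells, changed by -0.44, the choline transporter Slc44a1 by -0.51 and the stem cell factor receptor Kit by -0.56. Ccdc126 (-0.38) and Fcrla, an Fc receptor-like protein of B cells (-0.37), complete the 12 genes.

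**Figure D3:**
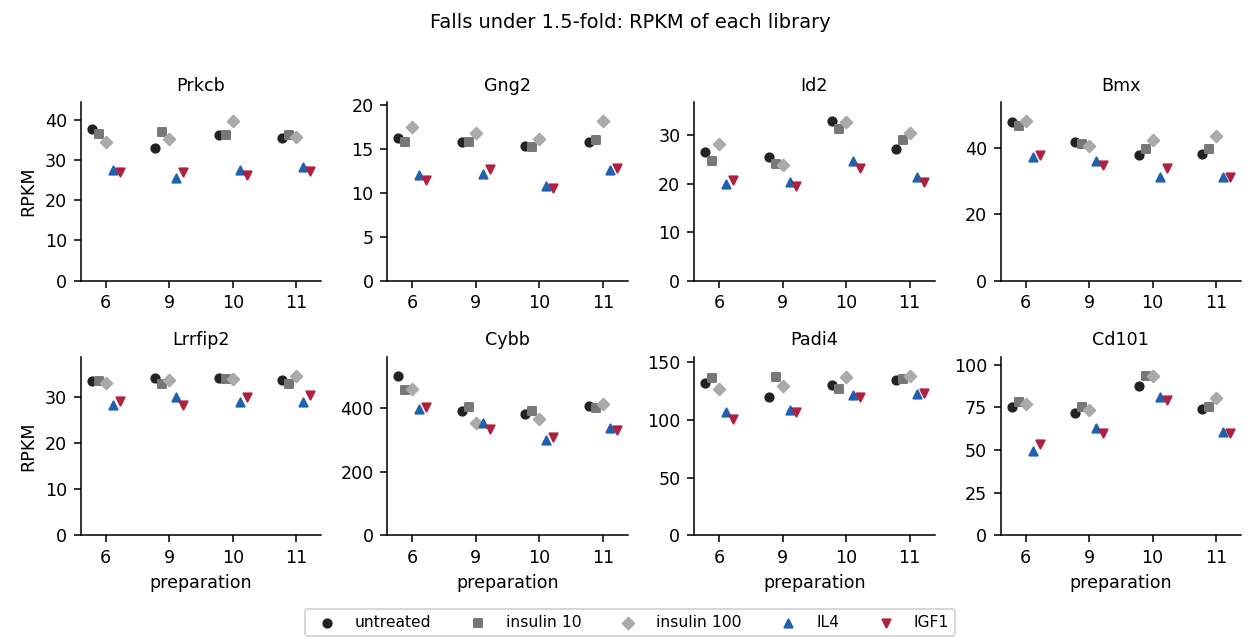
RPKM of each of the 20 libraries (vertical axes from 0) by preparation (horizontal axes) for 8 genes that fell by less than 1.5-fold. Symbols are as named in the legend, with IL4 and IGF1 as triangles. The triangles lie under the controls of the same preparation in every panel, for which the genes were selected. The step is about the same for Prkcb (-0.37 to -0.47) and Lrrfip2 (-0.18 to -0.21), and varies for Cd101 (-0.19 to -0.58).

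Of 21 genes of the oxidative burst and of extracellular traps, 5 fell (23.8%, beside 10.3% of all genes) and 2 rose, with a median log2 change of -0.06 beside 0.02 over all genes. Without preparation 10, 9 fell and 1 rose, and with median-of-ratios scaling 11 and 2. Cybb, the catalytic subunit of the NADPH oxidase (chromosome X, 9435252 to 9487771), had 301, 336 and 403 RPKM in treated and 353, 402 and 501 RPKM in control libraries, a log2 change of -0.25 (standard error 0.03, limma adjusted p = 3.96e-06). Preparation 9 showed the narrowest gap for it, with 352 RPKM with IL4 under the lowest control at 353 RPKM. Padi4, the deiminase that citrullinates histones in trap formation, changed by -0.22 and the autophagy gene Atg7 by -0.20, whereas Prkcd, the delta isoform of protein kinase C, rose by 0.33 and Mpo, myeloperoxidase, by 0.17.

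Of 29 granule protein genes, 11 fell and 5 rose (37.9% and 17.2%, beside 10.3% and 17.4% of all genes), with 14 and 4 without preparation 10, and none of the called genes changed by 1.5-fold. Chil1, a chitinase-like protein of specific granules, had 131 to 158 RPKM in treated and 160 to 199 RPKM in control libraries (-0.29, standard error 0.04, adjusted p = 3.00e-06). Camp, the cathelicidin precursor, changed by -0.27 and Fcnb, a ficolin, by -0.24, while Adam8 (0.40) and Cd177 (0.31), both surface proteins stored in granules, rose. Of 30 neutrophil identity genes, a list that shares genes with the granule list, 12 fell and 5 rose (40.0% and 16.7%), but none of the 12 was lower in every preparation. Retnlg, a resistin-like protein, changed by -0.24, Lrg1 by -0.23 and Stfa3 by -0.40, and Cxcr2, the chemokine receptor of mature neutrophils, rose by 0.66. Among 26 genes of neutrophil ageing and maturation, 6 fell and 6 rose (9 and 6 with median-of-ratios scaling). Cd101, a marker of mature neutrophils, had 49.2, 60.4 and 81.2 RPKM in treated and 71.7, 76.2 and 93.5 RPKM in control libraries (-0.34, standard error 0.04, adjusted p = 3.25e-06), and Ly6g, the granulocyte surface antigen, changed by -0.20.

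Of 34 genes of NF-κB and TLR signalling, 6 fell and 13 rose (17.6% and 38.2%, beside 10.3% and 17.4% of all genes). The other 15 were not called. Tnf, the gene of tumour necrosis factor, had 30.9, 34.8 and 30.9 RPKM in the controls of preparation 6 and 20.6 and 23.9 RPKM with IL4 and IGF1. In preparation 10 these values were 79.98, 76.8, 73.8, 64.4 and 69.8 RPKM. Its level thus differed more between preparations than between treatments, but it was lower in each of the 4 (pooled -0.32, standard error 0.05, limma adjusted p = 2.58e-05). Il1b, which encodes interleukin 1 beta, changed by -0.35 and Il12a, a subunit of interleukins 12 and 35, by -0.36. Nfkbiz, a nuclear regulator of NF-κB, changed by -0.17 and Irak3, an inhibitor of TLR signalling, by -0.15. Of these, Nfkbiz was lower in all 4 preparations, Il1b and Irak3 in 3, and Il12a in only 2 (limma adjusted p = 0.00858). Cd83 (2.48) and Ier3 (0.76) rose. Of 8 chemokine genes, Ccl5 fell (-0.49) and Ccl4 (0.69) and Ccl6 (0.16) rose. Ccl5 was lower, and Ccl6 higher, in only 2 preparations.

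Of 40 type I interferon stimulated genes, 16 were lower and 7 higher (40.0% and 17.5%, beside 10.3% and 17.4% of all genes). Without preparation 10 these counts were 12 and 5. Sp100, a nuclear body protein, had 23.4 to 26.1 RPKM in treated and 27.5 to 31.3 RPKM in control libraries (-0.23, standard error 0.03, limma adjusted p = 7.34e-07). Rsad2, the antiviral viperin, changed by -0.34 and Cmpk2 by -0.19. Ifit2 changed by -0.59, of which preparation 10 had the most at -1.23, and it was not lower in every preparation. Irf7, the interferon regulatory factor that amplifies the response, moved the other way and rose by 1.93, and Oasl2 rose by 0.43. The median log2 change of the list was -0.12. The DNA sensor Aim2, chosen here after its values were seen, had 8.45 to 12.5 RPKM in treated and 12.9 to 18.7 RPKM in control libraries (-0.54, adjusted p = 4.71e-06).

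In glucose metabolism 3 of 27 genes fell and 5 rose, 11.1% and 18.5%, near the 10.3% and 17.4% of all genes. Without preparation 10, 6 fell and 3 rose, and with median-of-ratios scaling 9 fell and 5 rose. The glucose transporter Slc2a3 changed by -0.16, Pfkfb3, which makes the activator of phosphofructokinase, by -0.15 and Ldha by -0.14. Of these, Ldha was lower in only 2 preparations. Hexokinase 3 (Hk3) rose by 1.05 and Slc2a1 by 0.23. Among 41 genes of PI3K, AKT and FOXO signalling, 6 fell and 6 rose, 14.6% each (10 and 4 genes with median-of-ratios scaling). Igf1r, the IGF1 receptor, had 13.7, 14.4 and 16.1 RPKM in treated and 15.2, 17.3 and 19.2 RPKM in control libraries and changed by -0.22 (standard error 0.03, limma adjusted p = 4.57e-05), by -0.25, -0.22, -0.22 and -0.19 in preparations 6, 9, 10 and 11. In the same list Sesn3 (-0.22), Sesn1 (-0.30) and the kinase Sgk1 (-0.15) also fell, and Bcl2l11 (0.83) and Cited2 (0.56) rose. Sesn1 was lower in only 2 preparations and Sgk1 in 3. Of 41 JAK/STAT genes, 3 fell and 18 rose (7.3% and 43.9%), and with median-of-ratios scaling 8 fell and 17 rose. Il13ra1, which forms the type II IL4 receptor with the IL4 receptor alpha chain, changed by -0.32. Jak1 changed by -0.09 and Csf2ra by -0.10, each lower in only 2 preparations. Jak2 rose by 0.87 and Socs3, a feedback inhibitor, by 1.68. Stat6 (-0.06, adjusted p = 0.143), Tyk2 (-0.07, adjusted p = 0.2), Insr (-0.08, adjusted p = 0.0839), Akt1 (0.07, adjusted p = 0.173), Akt2 (0.08, adjusted p = 0.109) and Nudc (0.13, adjusted p = 0.0936) were not called. With median-of-ratios scaling Stat6 was called, at -0.10 (adjusted p = 0.000549).

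Of 26 chemotactic and adhesion receptors, 5 fell and 9 rose (19.2% and 34.6%, beside 10.3% and 17.4% of all genes), or 8 and 9 with median-of-ratios scaling, with Ceacam1, an adhesion molecule, at -0.19, Itgal, the alpha chain of LFA-1, at -0.20 and Adgre5 at -0.13, and with Cxcr1 (2.61) higher. Of 21 phagocytic and Fc receptors, 5 fell and 4 rose (23.8% and 19.0%). Stab1, a scavenger receptor, changed by -0.41, Trem3 by -0.18 and the C-type lectin Clec4e by -0.19, and the inhibitory Fc receptor Fcgr2b rose by 1.60. In the lysosome list 4 of 38 genes fell, led by the granulin gene Grn (-0.21), and 9 rose (10.5% and 23.7%). Without preparation 10, 8 fell and 5 rose, and with median-of-ratios scaling 10 fell and 9 rose. Of 25 antioxidant genes, 4 fell, among them Nqo1 (-0.24), Gstm1 (-0.28) and Cat (-0.19), and 4 rose (7 and 4 with median-of-ratios scaling).

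Of 30 listed genes of alternative activation 16 were tested, and 0% fell and 81.25% (13) rose, beside 10.3% and 17.4% of all genes. Without preparation 10, 1 fell, and 2 fell with median-of-ratios scaling. Chil3 rose by 0.99 and Retnla by 5.26. Retnla had 6.98 to 13.2 RPKM in treated and 0 to 0.623 RPKM in control libraries. The 8 treated libraries alone can meet the filter, as for Retnla, so a gene near 0 in the controls was tested only if it rose. The 12 controls alone can also meet it, as for Cxcr3. A gene under 1 RPKM in all treated libraries was thus tested only if 8 or more controls reached 1 RPKM. Of 36 genes of ribosome biogenesis, 28 rose and Polr1a (-0.20) fell, of 39 genes of the unfolded protein response and heat shock, 18 rose and none fell (9 rose without preparation 10), and of 31 immediate early genes, 16 rose and 4 fell, among them Fos (-0.16) and Dusp2 (-0.35). Of 78 cytosolic ribosomal proteins, 1 rose and none fell, and of 65 nuclear genes of the respiratory chain, 5 rose and none fell, with 0 called without preparation 10. Of 33 genes of interferon gamma GTPases and antigen processing, 2 fell and 10 rose (2 and 6 without preparation 10, 6 and 9 with median-of-ratios scaling). Of 34 genes of apoptosis and survival, 2 fell and 12 rose (3 and 8, and 4 and 9). Of 24 genes of cholesterol and fatty acid synthesis, 2 fell and 4 rose (1 and 3, and 7 and 4), 8.33% and 16.7% in the main fit. Of 11 clock genes, 5 rose.

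Other cell types were followed by their markers, beside 10.3% lower and 17.4% higher over all genes. Of 12 erythroid markers, 4 fell and none rose, and their sum was 632 to 5605 RPKM in treated and 628 to 6201 RPKM in control libraries. Of 9 markers of basophils and mast cells, 2 fell, Kit and Hdc, the histidine decarboxylase (-0.22). None of 10 eosinophil markers was called, with 5 lower under median-of-ratios scaling. Rises were called for 3 of 6 dendritic cell markers, 2 of 4 platelet markers, 2 of 25 proliferation markers and the 1 endothelial marker tested, with no falls, and for 1 of 4 replication histones. The part of these cells in the falls above was not tested.

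Among small rises that repeated in every preparation, Cd44, an adhesion receptor for hyaluronan, had 207 to 242 RPKM in treated and 155 to 177 RPKM in control libraries (0.45, standard error 0.02, limma adjusted p = 1.22e-11), and Map2k4 (0.57), Rab44 (0.56), Csf2rb (0.56), Treml2 (0.50) and Nrros (0.58) were of like size.

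**Figure D4:**
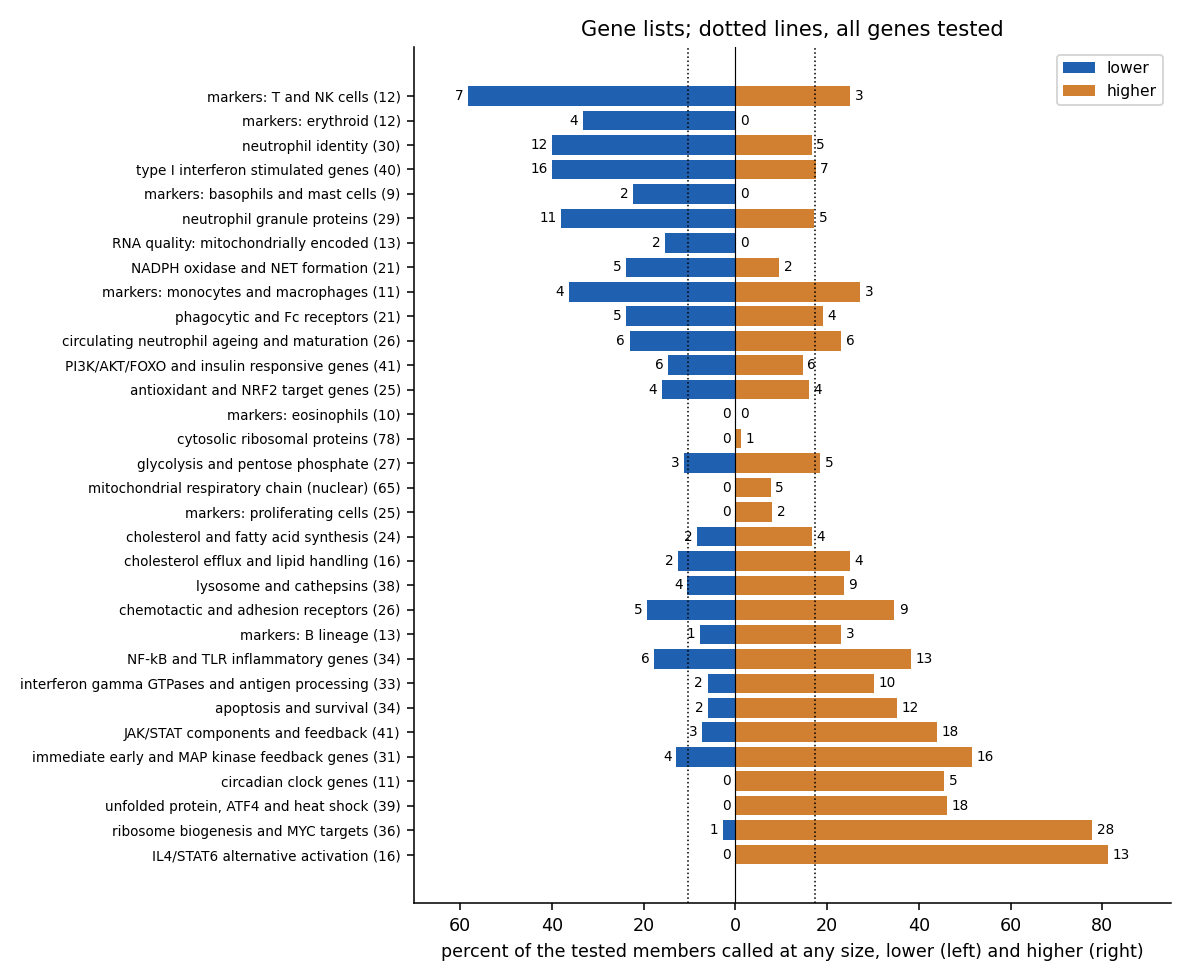
Share of the tested members of each gene list (number tested in brackets) called lower (left, blue) or higher (right, orange) at any size, in percent, with the counts at the bars. Dotted lines give the shares over all genes tested, 10.3% lower and 17.4% higher. Lists with under 9 tested members are left out. Bars to the left are long for granule proteins (11 of 29), neutrophil identity (12 of 30), interferon stimulated genes (16 of 40) and T and NK cells (7 of 12), and short for ribosome biogenesis (1 of 36).

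Whether IL4 and IGF1 differ from each other was tested in a fit of the 5 groups with the same block. No gene was called (0%), with 122 of 9404 at an unadjusted p under 0.05. For 190 of the 245 genes lower in every preparation, the 95% interval of the difference between IGF1 and IL4 lay within 1.2-fold, and for 241 within 1.5-fold. These intervals were not counted over all genes tested, so the counts cannot tell whether the 245 differ from other genes in this. For Fcmr the difference was -0.02 (95% interval -0.20 to 0.16), for Prkcb -0.02 (-0.12 to 0.09) and for Lrrfip2 0.02 (-0.06 to 0.09). The interval was wider for low genes such as Cxcr3, at 0.50 (0.10 to 0.89). Against the shared controls, 236 of the 245 were called lower with IL4 alone and 236 with IGF1 alone in this fit, and 229 with each. The 245 were picked because the libraries of both treatments lay under the controls. These calls were therefore largely fixed by that choice and are no check on whether the treatments agree. The pooled controls were compared too. Insulin at both doses against untreated cells gave 0 called genes (0%), with 275 at an unadjusted p under 0.05, and for Fcmr the difference was 0.15 (95% interval -0.01 to 0.30).

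Among the large falls that did not repeat in every preparation, most were largest in a single preparation. Of the 63 genes called lower by 1.5-fold or more, 33 were not lower in every preparation, and in 27 of these the fall was largest in preparation 10. Pyhin1, an interferon-inducible gene of the HIN-200 family, had the largest pooled change among them, -1.29 (limma adjusted p = 0.0229), made of 0.29, -1.45, -3.03 and -0.97 in preparations 6, 9, 10 and 11, and without preparation 10 it was -0.71 (adjusted p = 0.239). Trp53inp1, a target of p53, changed by -0.07, -0.31, -2.11 and -0.32, and Itga4, an integrin alpha chain, by 0.06, -0.74, -1.98 and -0.28. These genes were named after their values were seen. Without preparation 10, 41 of the 63 genes were still called lower and 32 of them by 1.5-fold or more.

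Both treated libraries of preparation 10 shared this change. Set against the median of the 5 libraries of their preparation, the IL4 and IGF1 libraries had 447 and 482 genes under 0.5 times the median, and the other 18 libraries had 11 to 74 such genes. The change differed between preparations for 2241 genes (23.8%, limma F test of the interaction, adjusted p under 0.05), and for 1 gene once preparation 10 was left out. In preparation 10, 546 genes fell by 2-fold or more. Of these, 377 changed by less than 1.5-fold in each of the other preparations, 79 were called lower in the pooled comparison and 11 were lower in every preparation. Their median transcript length was 5210 bases and their median GC content 40.1%, beside 3248 bases and 49.2% over all genes tested. The 13 genes encoded by the mitochondrial genome moved with this, since their summed level changed by 0.11, -0.40, -1.0 and -0.20 on the log2 scale in preparations 6, 9, 10 and 11. The part of transcript length, GC content and mitochondrial RNA in these falls was not tested. Genes lower in every preparation had a median length of 3818 bases and a median GC content of 48.3%.

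**Figure D5:**
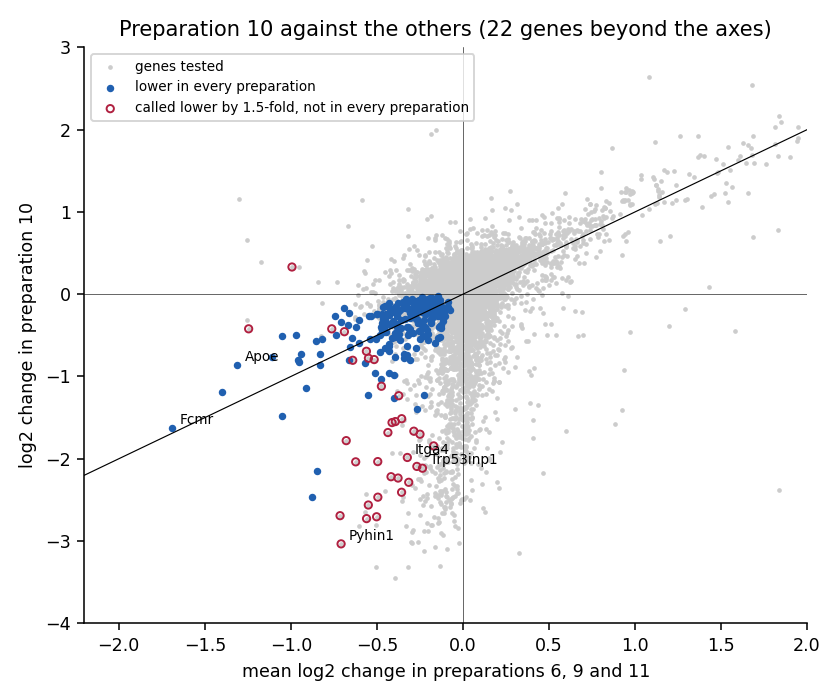
Log2 change in preparation 10 (vertical axis) against the mean log2 change in preparations 6, 9 and 11 (horizontal axis), 1 point per gene tested, with the line of equal change. Blue points are the 245 genes lower in every preparation, red circles the 33 genes called lower by 1.5-fold or more that were not. The red circles mostly lie far under the line, as Pyhin1 with -3.03 in preparation 10, and a tail of grey points reaches down near 0 on the horizontal axis.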

How the data were processed

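RNA was captured by poly(A), made into stranded libraries and sequenced. The authors used bcl2fastq 2.17.1.4 and CLC Genomics Workbench with the mouse genome GRCm38, and deposited RPKM values for 48709 genes per library. Whether counting used strand is not stated in the labels or the methods, so overlapping and near-identical genes may share reads.

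From these values log2(RPKM + 0.1) was computed, genes with at least 1 RPKM in 8 of the 20 libraries were kept, and the treated minus control difference was fitted with limma 3.58.1 (trend and robust settings, statmod 1.5.0, R 4.3.3) with preparation as a block. The threshold was an adjusted p (Benjamini-Hochberg) of 0.05, with and without a change of 1.5-fold. The block rests on a check of pairing: after the group means were removed, correlations had a median of 0.626 (lowest 0.217) over the 40 pairs from a shared preparation and of -0.221 over the 150 other pairs. Mapped reads were recovered as the totals at which values become whole reads, which they did within 0.01 reads (wider for abundant genes) for 14866 of 21058 genes above 0. Intervals cover the spread between libraries. The script was run on simulated data with independent errors and the same change in every preparation. That setting does not cover changes that differ between preparations. Gene positions, lengths and GC content are from GENCODE M21 and promoters from RefSeq. Figures used Python 3.11.15 and matplotlib 3.10.9.

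The comparison, the 37 gene lists and the rules were chosen with earlier results of these data known. Named genes were the 12 largest falls of 1.5-fold or more and the 12 smaller falls with the smallest p among genes lower in every preparation, 6 rises of each kind, up to 4 lower and 2 higher called members of each list, and tested genes that the paper names, of which not all are reported here. Alternatives were other pseudocounts, filters, scaling, moderation, blocks, controls and treated groups, voom on recovered reads, a correction for GC content and length, and each library or preparation left out.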

Additional observations from a re-analysis of the deposited data

Results flagged for a closer look

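The 36 genes named for the size or the p of their change were screened in each of the 5 groups for a library far from the other 3, and 6 of 180 groups stood out, where chance gives about 1 in 20. Apoe was highest in preparation 9 in untreated cells, at 29.6 RPKM beside 15.2 to 16.8 RPKM, and with 10 ng/mL insulin, at 25.6 RPKM beside 15.1 to 16.9 RPKM. Prkcb was lowest in preparation 10 with IGF1 (26.2 RPKM beside 27.1 to 27.2 RPKM). Cd93 was highest in preparation 9 with IGF1 (10.2 RPKM beside 7.21 to 7.53 RPKM). Havcr2 was lowest in preparation 6 with 100 ng/mL insulin (0.418 RPKM beside 0.605 to 0.612 RPKM), and Treml2 was lowest in preparation 6 with IL4 (73.9 RPKM beside 86.3 to 88.4 RPKM).

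The change differed between preparations for 9 of the 36 genes by the limma test of the interaction, beside 2241 of all 9404 genes tested (23.8%). All 9 had the same direction in each preparation, which was fixed by the way the 36 genes were selected. Adjusted p was 0.00769 for Rasgrp3 (log2 changes from -1.63 to -0.99), 0.000394 for Pgap1 (-2.46 to -0.70), 0.000385 for Il7r (-2.15 to -0.33) and 0.00353 for Abca1 (-1.15 to -0.55). It was 0.0431 for St3gal6, 0.0485 for Slc44a1, 0.0371 for Cd93, 0.00451 for Havcr2 and 0.00544 for Nrros.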

How the results depend on the processing

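The counts under the settings of the report were 63 lower and 230 higher at 1.5-fold, 969 lower and 1639 higher at any size, and 245 lower and 565 higher in every preparation. With a pseudocount of 1, 27 genes were lower at 1.5-fold. With a filter of 0.1 RPKM in 4 libraries these counts were 146 lower and 417 higher, and 1 gene differed between insulin and untreated cells. With a filter of 5 RPKM they were 18 and 125, with 1064 higher at any size. Median-of-ratios scaling gave 1595 lower at any size, 445 lower in every preparation and 1486 genes that differed between preparations. Correction for GC content and length with the replicate block gave 1943 lower at any size (1360 higher) and 613 lower in every preparation, and 239 of the 242 genes measured among the 245 were called. Under that correction the change of mt-Atp8 turned from -0.58 to 0.18 (adjusted p = 0.48). Without the replicate block 405 genes were lower and 861 higher at any size, and 184 of the 245 were called. With 1 difference for each preparation, so that the preparation is the replicate, 33 genes were lower at 1.5-fold, 147 lower and 484 higher at any size, and 107 of the 245 were called.

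With untreated controls only, 33 genes were lower at 1.5-fold, 423 lower and 1026 higher at any size, and 551 lower and 1210 higher in every preparation, where fewer libraries have to be passed. IL4 alone gave 552 lower and 986 higher at any size, and IGF1 alone 572 and 1090, with 399 lower and 886 higher in every preparation. Without preparation 6, 293 genes were lower at 1.5-fold, 1022 higher in every remaining preparation, 1111 differed between preparations and 1 between insulin and untreated cells. Without preparation 10, 1064 were higher at any size, 485 lower in every remaining preparation and 1 differed between preparations. Without preparation 11, 608 were lower at any size and 2 differed between insulin and untreated cells. With groups or preparations left out, counts in every preparation can only stay or rise, since fewer libraries have to be passed. The causes of the other shifts were not tested.

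Leaving out a single library gave 48 to 165 lower and 224 to 239 higher genes at 1.5-fold, 847 to 1112 lower and 1319 to 1992 higher at any size, and 249 to 294 lower and 569 to 733 higher in every preparation. The counts in every preparation can then only stay or rise. The 165 came without the IL4 library of preparation 6, and 101 and 99 lower genes came without the libraries of 10 ng/mL insulin of preparations 6 and 9. Genes under 5 RPKM rest on few reads, which limits small changes there.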
